A study of Mus musculus with 6 samples.

Results

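The unfolded protein response and the quality control machinery of the endoplasmic reticulum (ER) were followed through 36 genes. These, like the other pathway genes below, were chosen by name from pathway knowledge, but with earlier results of these data known. They were matched to the 55536 mouse gene identifiers of the expression tables through the GENCODE M21 annotation. All 36 were found, and 35 of them were high enough to test among 11120 tested genes. RNA was sequenced from RAW264.7, a virus-transformed mouse line with macrophage traits that can form osteoclast-like cells when given RANKL, the cytokine of osteoclast formation. Cells given RANKL (50 ng/mL) plus etelcalcetide (4 µM), a synthetic peptide used to switch on the calcium-sensing receptor, made up 3 libraries (treated libraries), and cells given RANKL alone made up the other 3 (RANKL libraries). Cells of this line with RANKL gave all 6 libraries, so no value shows what RANKL itself did. The series design gives 5 days for both groups, but replicates 1, 2 and 3 of each group carry 5, 6 and 7 days in their own labels. Whether replicates came from separate cultures is not said, and the p-values then cover the spread among the 6 libraries alone, which may be technical.

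Proteins that enter the secretory pathway fold in the ER with the help of chaperones, lectins and disulfide isomerases, and those that fail are pulled back to the cytosol and degraded, a route called ER-associated degradation. When unfolded proteins accumulate, the membrane sensors IRE1, PERK and ATF6 start the unfolded protein response. IRE1 splices the messenger of the factor XBP1, PERK slows translation by phosphorylating eIF2α, and ATF6 is released by cleavage in the Golgi to enter the nucleus. Osteoclasts secrete acid hydrolases in quantity, and the IRE1 and XBP1 branch has been linked to osteoclast formation in mice.

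Many genes of the response are known to carry the ER stress response element, bound by ATF6 and XBP1 together with NF-Y, in their promoters. Its letters, CCAAT followed by any 9 bases and CCACG, were searched on both strands in windows of 300 bases around gene starts (RefSeq, GRCm38.p6). Such a window was at hand for 31 members and not for Atf6, Hyou1, Manf, Derl1 and Sec61a1. The element stood in 9 of the 31 member windows (29.0%), against 39 of 32817 windows of all genes (0.119%). Members were picked as genes of the response, so this contrast follows in part from the choice and is no test. The windows of all genes include those of the members and every start at hand, whereas each member counts with 1 window. The copies are shown because they join genes that went in opposite directions below, each read in the element's own orientation from 5′ to 3′ with its fixed letters in capitals.
Hspa5: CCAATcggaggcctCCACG
Hsp90b1, upstream copy: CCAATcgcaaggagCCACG
Hsp90b1, downstream copy: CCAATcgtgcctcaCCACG
Dnajc3: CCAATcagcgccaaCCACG
Creld2: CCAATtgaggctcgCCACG
Calr: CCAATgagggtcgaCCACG
Canx: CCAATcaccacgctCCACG
Pdia6: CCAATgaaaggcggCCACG
Syvn1: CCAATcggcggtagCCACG
Derl3: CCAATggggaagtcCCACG
The second form of the element, ATTGG followed by any 1 base and CCACG, stood in the windows of Dnajb11 and Herpud1 (0.0366% of all windows), and the element TGACGTGG in that of Sec24d (0.677% of all windows), while TGACGTGT was in no member window (0.469% of all windows). A match is a description of the letters and not a site of binding. Only exact matches were counted, so near copies are missed, also in windows that hold an exact match.

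Full windows follow for Hspa5, the best known target of the response, for Hsp90b1, with 2 exact copies, and for the degradation gene Syvn1. They run from 250 bases before to 50 after the gene's start, on the gene's strand. Capitals mark the fixed letters of the element, which read CGTGG to ATTGG where it lies on the opposite strand, as in the second copy of Hsp90b1. In Hspa5 (chr2:34771840-34772139, plus strand) the element began 65 bases upstream of the start, in Hsp90b1 (chr10:86705395-86705694, minus strand) 212 and 107 bases upstream, and in Syvn1 (chr19:6046326-6046625, plus strand) 44 bases upstream.
Hspa5: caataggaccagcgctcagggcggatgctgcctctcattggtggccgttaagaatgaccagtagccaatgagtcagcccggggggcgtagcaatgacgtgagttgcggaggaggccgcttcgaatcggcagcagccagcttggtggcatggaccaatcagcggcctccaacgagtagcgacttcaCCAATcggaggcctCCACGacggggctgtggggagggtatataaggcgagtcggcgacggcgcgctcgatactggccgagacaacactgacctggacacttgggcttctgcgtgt
Hsp90b1: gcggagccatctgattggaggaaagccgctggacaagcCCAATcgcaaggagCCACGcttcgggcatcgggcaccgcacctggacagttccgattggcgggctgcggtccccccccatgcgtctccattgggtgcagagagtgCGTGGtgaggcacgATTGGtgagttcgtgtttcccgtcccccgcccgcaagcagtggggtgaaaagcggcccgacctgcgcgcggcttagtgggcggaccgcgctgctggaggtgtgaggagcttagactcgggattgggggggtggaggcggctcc
Syvn1: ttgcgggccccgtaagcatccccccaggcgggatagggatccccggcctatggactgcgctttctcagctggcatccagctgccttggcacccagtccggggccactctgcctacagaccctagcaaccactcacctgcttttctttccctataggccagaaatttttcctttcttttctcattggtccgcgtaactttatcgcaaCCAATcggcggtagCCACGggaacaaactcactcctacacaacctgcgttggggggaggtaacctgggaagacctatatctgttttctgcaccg

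The libraries held 13742913 to 16264432 gene-assigned reads. Treated replicate 1 stood apart for these genes: it had the highest deposited value of the 3 treated libraries for 31 of the 35 tested members and for 16 of 16 chaperones and folding enzymes, against 37.7% of all tested genes. After scaling between libraries it was highest for 28 of 35 members, against 36.5% of all tested genes. Calls that changed without that library are given both ways. The libraries expressed macrophage genes, with 9 of 10 macrophage markers high enough to test. Of these, 5 were higher (55.6%, against 26.0% of all tested genes) and 0 lower in treated cells. Of 9 tested osteoclast markers 0 were higher and 6 lower (66.7%, against 27.0% of all tested genes), all 6 past 2-fold. Their median log2 fold change was -1.57 and the lowest -8.40. The summed level of the 10 listed markers was 206 to 219 FPKM in treated libraries, against 393 to 539 FPKM in RANKL libraries (FPKM: reads scaled to exon length and library total). Every comparison below sets the same groups against each other, so it cannot be told apart from this difference, whose part was not tested. In bulk RNA, fewer cells of a type and less RNA per cell cannot be told apart. Of 8 markers of B and plasma cells, which use this response heavily, 2 had 0 reads in all 6 libraries, Ms4a1 among them, and 2 were high enough to test. Of the tested markers, Ighm was lower in treated cells (13.2 ± 2.64 FPKM in treated libraries and 28.9 ± 2.92 FPKM in RANKL libraries, SD, n = 3 each). The other did not pass (log2 fold change -0.27).

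The comparison asked how transcripts of the response differed when etelcalcetide was added to RANKL. Of 35 tested members 11 were higher, 13 lower and 11 did not pass the test (limma on log2 values, Benjamini-Hochberg adjusted p under 0.05 over all tested genes). That is 68.6% of the members changed, against 53.0% of all tested genes (26.0% higher and 27.0% lower). Without scaling beyond library totals the split over all genes was 3558 higher and 2272 lower, and that over the members 12 higher and 11 lower. The changes were small, with 3 of 35 members (8.57%) past 1.5-fold, against 18.0% of all tested genes. The median size of the log2 fold change was 0.28 over the members and 0.28 over all tested genes, and the median of the signed value was -0.13 and -0.01. Treated and RANKL libraries were fully apart in their deposited values for 25 of 35 members (71.4%), against 61.2% of all tested genes.

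**Figure D1:**
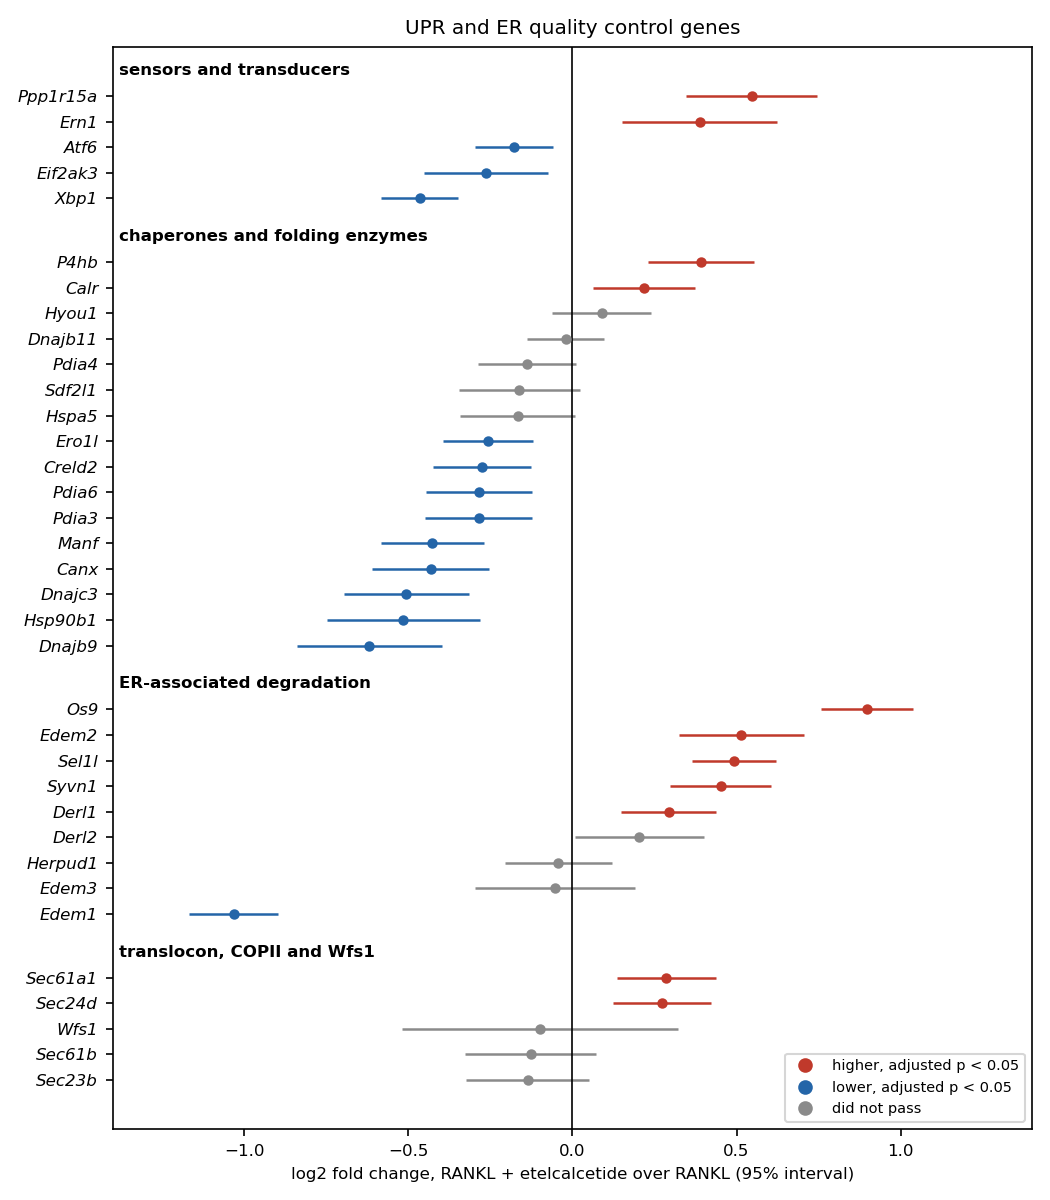
Log2 fold change of RANKL + etelcalcetide over RANKL (x axis) with its 95% interval for the 35 tested genes, grouped by role and coloured by the limma call. Os9 (0.90) and Edem1 (-1.03) lie at the ends, both in ER-associated degradation. Of 16 chaperones and folding enzymes 9 were lower (56.2%, against 27.0% of all tested genes).

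The sensors and transducers went in both directions, and all 5 passed the test, against 53.0% of all tested genes. Of them 2 were higher (40.0%, against 26.0% of all tested genes) and 3 lower (60.0%, against 27.0%), with a median log2 fold change of -0.18. With library totals only, 3 of the 5 passed. Ern1, which encodes IRE1, had 4.72, 4.97 and 5.06 FPKM in treated libraries, against 3.08, 3.83 and 3.74 FPKM in RANKL libraries. Xbp1, the factor whose messenger IRE1 splices, had 77.7, 80.1 and 77.5 FPKM in treated libraries, against 98.6, 101 and 108 FPKM in RANKL libraries. The Ern1 transcript thus rose and the transcript that IRE1 cuts fell, with no overlap between groups for either gene. The log2 fold change was 0.39 for Ern1 (SE 0.104, limma adjusted p = 0.0124) and -0.47 for Xbp1 (SE 0.0523, limma adjusted p = 0.000121). The ratio of Ern1 to Xbp1 within a library, which no scaling between libraries can move and which, like the other ratios here, was chosen after values were seen and not tested, was 0.0627 ± 0.00238 in treated libraries and 0.0346 ± 0.00337 in RANKL libraries (SD, n = 3 each). Gene-level values do not separate spliced from unspliced Xbp1, so IRE1 activity was not measured.

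Ppp1r15a, which encodes GADD34, the phosphatase subunit that reverses eIF2α phosphorylation, had 10.4, 9.96 and 10.3 FPKM in treated libraries, against 5.89, 6.50 and 7.43 FPKM in RANKL libraries. It rose by 0.55 on the log2 scale (SE 0.0882, limma adjusted p = 0.000910). Eif2ak3, which encodes PERK, had 4.88, 4.75 and 4.71 FPKM in treated libraries, against 5.15, 5.29 and 5.95 FPKM in RANKL libraries. Its groups did not overlap, but the difference was small (log2 fold change -0.26, limma adjusted p = 0.0248), and the call was lost with library totals only (limma adjusted p = 0.0958). It was also lost without treated replicate 1 (0.05255), 2 (0.0584) or 3 (0.0712) and without RANKL replicate 2 (0.0519) or 3 (0.0615), all limma adjusted p, and 8.05% of its exon length overlaps an antisense gene. Atf6 had 22.6, 21.3 and 22.0 FPKM in treated libraries, against 23.7, 24.1 and 23.0 FPKM in RANKL libraries. Its groups lay close together without overlap (log2 fold change -0.18, limma adjusted p = 0.0189), and the call was lost with library totals only (limma adjusted p = 0.156). It was lost too without treated replicate 2 (0.0608) or 3 (0.0516) and without RANKL replicate 2 (0.0742), again limma adjusted p.

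Other genes around PERK and ATF6, listed from pathway knowledge, were mixed as well. Of 9 tested transducers and targets of PERK, 2 were higher and 4 lower (66.7% changed, against 53.0% of all tested genes), with a median log2 fold change of -0.23. Atf3, a stress-inducible transcription factor, reached 7.80 ± 1.13 FPKM in treated libraries, against 2.86 ± 0.129 FPKM in RANKL libraries (SD, n = 3 each; log2 fold change 1.33, limma adjusted p = 2.77e-05). Atf4, the factor translated when PERK is active, stood at 81.5 ± 9.48 FPKM in treated libraries and 101 ± 4.64 FPKM in RANKL libraries (log2 fold change -0.40, limma adjusted p = 0.00295). Eif2s1, which encodes eIF2α itself, fell by 0.50 on the log2 scale (limma adjusted p = 0.000417). Ddit3, which encodes the death-linked factor CHOP, and Chac1, a glutathione-degrading target of ATF4, were chosen after their values were seen. Ddit3 was higher (log2 fold change 0.40, limma adjusted p = 0.00941, 10.9% of its exon length shared with other genes). Chac1 was lower (-0.63, limma adjusted p = 0.0142), a call lost with no filter on low genes (limma adjusted p = 0.0573). Of 7 tested membrane factors and proteases that cleave them, 3 were higher and 1 lower (57.1% changed, against 53.0% of all tested genes). Mbtps2, which encodes the Golgi protease S2P that releases ATF6, stood at 5.80 ± 0.112 FPKM in treated libraries and 8.21 ± 0.655 FPKM in RANKL libraries (log2 fold change -0.57, limma adjusted p = 0.000401, 28.4% of exon length shared with other genes). Tmbim6, a multi-pass ER membrane protein that restrains cell death, rose by 0.47 on the log2 scale (limma adjusted p = 0.000124). Creb3, an ER-anchored factor, rose by 0.61 (limma adjusted p = 0.000470), and 20.8% of its exon length is shared with antisense genes.

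**Figure D2:**
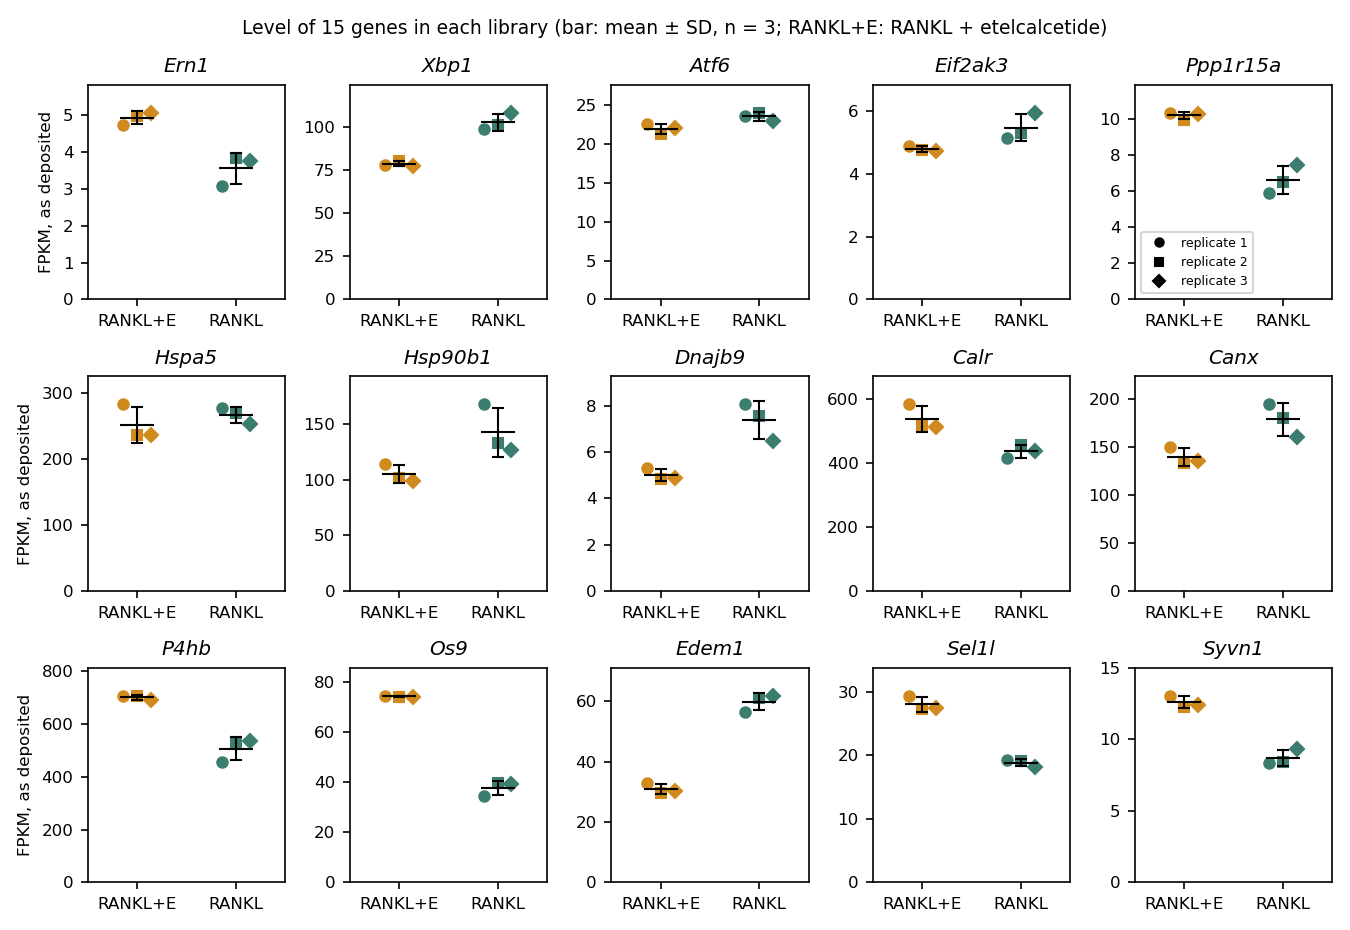
Deposited FPKM (y axis, from 0) of 15 genes in each library of RANKL + etelcalcetide (left) and RANKL (right); marker shapes are replicates 1 to 3 and the black bar is the mean ± SD, n = 3. The groups are apart for every gene shown except Hspa5, whose treated replicate 1 (283 FPKM) lies above all RANKL libraries.

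The member chaperones and folding enzymes leaned lower. Of 16 tested, 2 were higher, 9 lower (56.2%, against 27.0% of all tested genes) and 5 did not pass, with a median log2 fold change of -0.27, and the count was 2 higher and 9 lower with library totals only. Without treated replicate 1 it was 1 higher and 12 lower, beside 2410 higher and 2625 lower among all 10897 genes tested in that setting. Hspa5, which encodes BiP, the Hsp70 of the ER and the usual readout of the response, had 283, 236 and 236 FPKM in treated libraries, against 277, 268 and 253 FPKM in RANKL libraries. The groups overlapped through treated replicate 1, and Hspa5 did not pass (log2 fold change -0.17, 95% interval -0.34 to 0.01, limma adjusted p = 0.10). Without that library its log2 fold change was -0.25 (limma adjusted p = 0.0140). Hsp90b1, which encodes the Hsp90 of the ER, had 114, 101 and 99.1 FPKM in treated libraries, against 168, 133 and 127 FPKM in RANKL libraries. It fell by 0.52 on the log2 scale (SE 0.103, limma adjusted p = 0.00286), although 15.7% of its exon length is shared with other genes. So Hsp90b1 passed the test and Hspa5 did not, but both estimates were negative and no difference between these genes was tested.

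Transcripts of the co-chaperones that bring BiP its clients also fell in part. Dnajb9, a J-domain partner of BiP that also restrains IRE1, had 5.32, 4.85 and 4.90 FPKM in treated libraries, against 8.07, 7.56 and 6.48 FPKM in RANKL libraries. Dnajc3, a J-domain protein known as a PERK inhibitor, had 13.8, 12.2 and 12.1 FPKM in treated libraries, against 18.6, 17.3 and 15.5 FPKM in RANKL libraries. Neither gene's groups overlapped (log2 fold change -0.62 for Dnajb9, SE 0.0972, limma adjusted p = 0.000792, with -0.51 for Dnajc3, SE 0.0841, limma adjusted p = 0.00107). Dnajb11, the J-domain protein that binds unfolded chains in the lumen, stood at 54.0 ± 2.41 FPKM in treated libraries and 51.8 ± 1.04 FPKM in RANKL libraries (log2 fold change -0.02, 95% interval -0.14 to 0.10, limma adjusted p = 0.770). Its partner Sdf2l1 did not pass either (log2 fold change -0.16, limma adjusted p = 0.123), but was lower without treated replicate 1 (limma adjusted p = 0.0487). Hyou1, the nucleotide exchange factor of BiP, had 92.8, 83.5 and 78.6 FPKM in treated libraries, against 73.3, 75.6 and 77.5 FPKM in RANKL libraries. Its deposited values did not overlap, yet it did not pass (log2 fold change 0.09, limma adjusted p = 0.288), nor with library totals only (limma adjusted p = 0.0571). Without treated replicate 1 its log2 fold change was 0.03. Manf and Creld2, small ER proteins induced by the response, fell by 0.43 and 0.28 on the log2 scale (limma adjusted p = 0.000941 and 0.00730), with 9.25% of the exon length of Manf shared with other genes.

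The lectin chaperones, which hold glycoproteins by a trimmed sugar, parted ways. Calr, the soluble calreticulin, had 583, 515 and 511 FPKM in treated libraries, against 415, 455 and 437 FPKM in RANKL libraries. Canx, its membrane-bound relative calnexin, had 150, 134 and 136 FPKM in treated libraries, against 195, 181 and 161 FPKM in RANKL libraries. Calr was thus higher by 0.22 on the log2 scale (SE 0.0685, limma adjusted p = 0.0240). Canx was lower (log2 fold change -0.43, SE 0.0783, limma adjusted p = 0.00172). The ratio of Calr to Canx was 3.83 ± 0.0620 in treated libraries and 2.45 ± 0.300 in RANKL libraries (SD, n = 3 each). The call of Calr was lost with no filter (limma adjusted p = 0.0934), with a single prior variance (0.0539), without treated replicate 1 (0.0683) and without RANKL replicate 1 (0.0571).

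The disulfide isomerases showed the same kind of split. P4hb, the founding protein disulfide isomerase and also a subunit of collagen prolyl hydroxylase, was the most abundant of the 36 genes per exon length, with 709, 707 and 691 FPKM in treated libraries, against 457, 531 and 536 FPKM in RANKL libraries. It rose by 0.39 on the log2 scale (SE 0.0714, limma adjusted p = 0.00175). Pdia3, the isomerase that works with calnexin and calreticulin, had 219, 182 and 187 FPKM in treated libraries, against 232, 226 and 218 FPKM in RANKL libraries. It fell by 0.29 (limma adjusted p = 0.00904), though its deposited values overlapped through treated replicate 1. Pdia6, another isomerase, fell by 0.28 (limma adjusted p = 0.00904), as did Ero1l, the oxidase that recharges these enzymes, by 0.26 (limma adjusted p = 0.00674). Pdia4 did not pass (log2 fold change -0.14, limma adjusted p = 0.107), and was lower without treated replicate 1 (-0.20, limma adjusted p = 0.0190). The ratio of P4hb to Pdia3 was 3.61 ± 0.332 in treated libraries and 2.26 ± 0.258 in RANKL libraries.

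**Figure D3:**
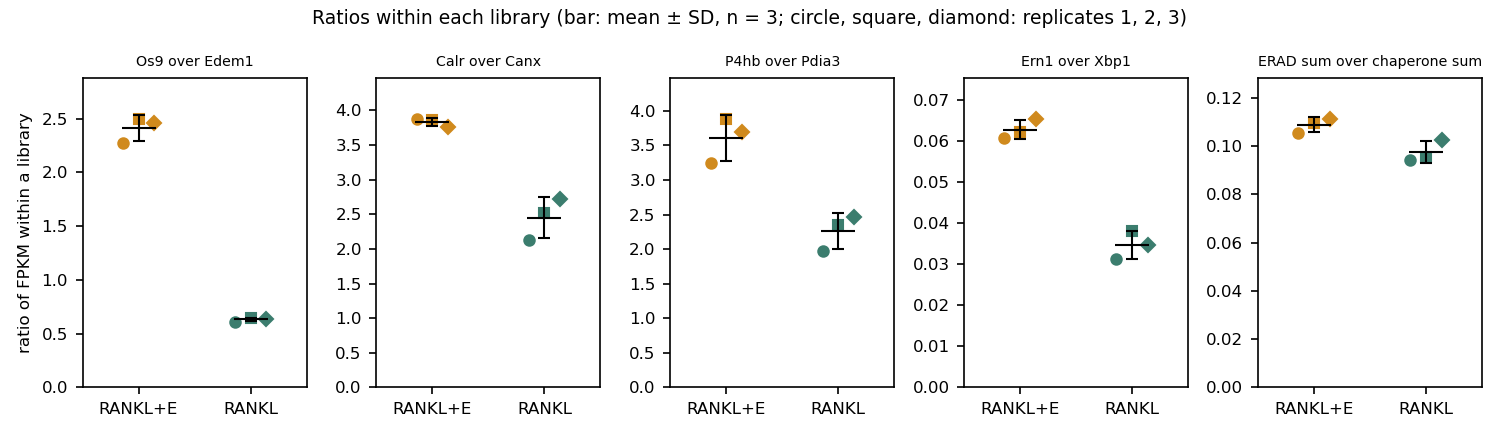
Ratios of deposited FPKM within a library (y axis, from 0) for RANKL + etelcalcetide (left) and RANKL (right); points are replicates 1 to 3 and the bar is the mean ± SD, n = 3. Os9 over Edem1 averaged 2.41 in treated and 0.632 in RANKL libraries, and the sum of degradation genes over that of chaperones 0.109 and 0.0974. Os9 makes up much of the difference in the degradation sum.

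Of 26 other ER chaperones and folding enzymes, listed from pathway knowledge, 6 were higher and 6 lower (46.2% changed, against 53.0% of all tested genes). With library totals only, 8 were higher and 4 lower. Fkbp2 and Fkbp11, prolyl isomerases of the ER, stood at 26.2 ± 0.413 and 1.74 ± 0.200 FPKM in treated libraries, against 33.8 ± 1.32 and 3.31 ± 0.203 FPKM in RANKL libraries. Both fell (log2 fold change -0.45 and -0.97, limma adjusted p = 0.000116 and 0.000217). Sdf2, the close relative of Sdf2l1, rose by 0.49 (limma adjusted p = 0.000323), and 15.97% of its exon length lies under the antisense gene Supt6. Enzymes of N-glycan transfer and trimming were higher in 8 of 15 cases (53.3%, against 26.0% of all tested genes) and lower in 4 (26.7%, against 27.0%). Their median log2 fold change was 0.18. Among them Ganab and Prkcsh, the subunits of glucosidase II that trims glucose for the lectin cycle, rose by 0.35 and 0.42 (limma adjusted p = 0.000408 and 0.000636), and Man1b1, an ER mannosidase, by 0.37 (limma adjusted p = 0.000612).

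The member genes of ER-associated degradation leaned higher. Of 9 tested, 5 were higher (55.6%, against 26.0% of all tested genes), 1 lower and 3 did not pass, with a median log2 fold change of 0.29. The recognition step held the furthest changes of the whole set, in opposite directions. Os9, a lectin that hands misfolded glycoproteins to the degradation complex, had 74.7, 74.2 and 74.2 FPKM in treated libraries, against 34.6, 39.7 and 39.2 FPKM in RANKL libraries. Edem1, which promotes mannose trimming of misfolded glycoproteins, had 32.9, 29.7 and 30.1 FPKM in treated libraries, against 56.5, 61.2 and 61.9 FPKM in RANKL libraries. Every treated value of Os9 exceeded every RANKL value, and the reverse held for Edem1 (log2 fold change 0.90 for Os9, SE 0.0618, limma adjusted p = 7.22e-06, against -1.03 for Edem1, SE 0.0599, limma adjusted p = 2.78e-06). The ratio of Os9 to Edem1 within a library was 2.41 ± 0.120 in treated libraries and 0.632 ± 0.0182 in RANKL libraries (SD, n = 3 each). Leaving out single libraries kept Os9 between 0.83 and 0.94 and Edem1 between -1.07 and -1.01. On GRCm38, Os9 (ENSMUSG00000040462) lies on chromosome 10, 127095650 to 127121131, and Edem1 (ENSMUSG00000030104) on chromosome 6, 108828641 to 108859356.

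The relatives of Edem1 did not follow it. Edem2, which takes the first mannose in this pathway, had 19.4, 20.0 and 19.1 FPKM in treated libraries, against 11.5, 12.9 and 14.4 FPKM in RANKL libraries. It rose by 0.51 (SE 0.0840, limma adjusted p = 0.000981). Edem3 had 8.19, 6.58 and 7.65 FPKM in treated libraries, against 7.81, 7.81 and 6.41 FPKM in RANKL libraries, with overlapping groups (log2 fold change -0.05, 95% interval -0.30 to 0.19, limma adjusted p = 0.707). Of the 3 mannose-trimming genes Edem1 was thus lower, Edem2 higher and Edem3 not past the test, and the ratio of Edem2 to Edem1 was 0.632 ± 0.0410 in treated libraries and 0.216 ± 0.0158 in RANKL libraries.

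Transcripts for the core of the ubiquitin ligase complex in the ER membrane rose. Syvn1, which encodes the ligase HRD1, had 13.0, 12.3 and 12.4 FPKM in treated libraries, against 8.33, 8.40 and 9.32 FPKM in RANKL libraries. Sel1l, the adaptor that stabilises HRD1, had 29.4, 27.3 and 27.5 FPKM in treated libraries, against 19.3, 19.1 and 18.2 FPKM in RANKL libraries. The transcripts of ligase and adaptor were both higher without overlap. The log2 fold change was 0.45 for Syvn1 (SE 0.0680, limma adjusted p = 0.000630) and 0.49 for Sel1l (SE 0.0566, limma adjusted p = 0.000139). Derl1, a derlin of the exit channel, had 50.5, 49.7 and 48.1 FPKM in treated libraries, against 37.0, 35.8 and 41.9 FPKM in RANKL libraries, and rose by 0.29 (limma adjusted p = 0.00468). Derl2 did not pass (log2 fold change 0.20, 95% interval 0.01 to 0.40, limma adjusted p = 0.0753), but did with library totals only (0.0263), with voom weights (0.0358) and without RANKL replicate 3 (0.0278), all limma adjusted p. Derl3, the derlin typical of secretory cells, had 2, 1 and 1 reads in treated libraries and 0 in each RANKL library, too few to test. Herpud1, the stress-inducible scaffold of the complex, stood at 35.2 ± 3.06 FPKM in treated libraries and 34.3 ± 2.09 FPKM in RANKL libraries (log2 fold change -0.04, 95% interval -0.20 to 0.12, limma adjusted p = 0.643).

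Of 22 other genes of the degradation route, 6 were higher (27.3%, against 26.0% of all tested genes), 2 lower (9.09%, against 27.0%) and 14 did not pass. That is 36.4% changed, against 53.0% of all tested genes. The lean of the members toward higher values was thus not seen in this longer list. With library totals only, 8 were higher and 0 lower. Their median log2 fold change was 0.01, against -0.01 over all tested genes. Faf2 and Nploc4, which tie the extraction ATPase to its substrates, rose by 0.32 and 0.25 (limma adjusted p = 0.00297 and 0.00924). Tmub1, a ubiquitin-like membrane protein, stood at 5.80 ± 0.598 FPKM in treated libraries and 3.35 ± 0.729 FPKM in RANKL libraries (log2 fold change 0.71, limma adjusted p = 0.00416).

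**Figure D4:**
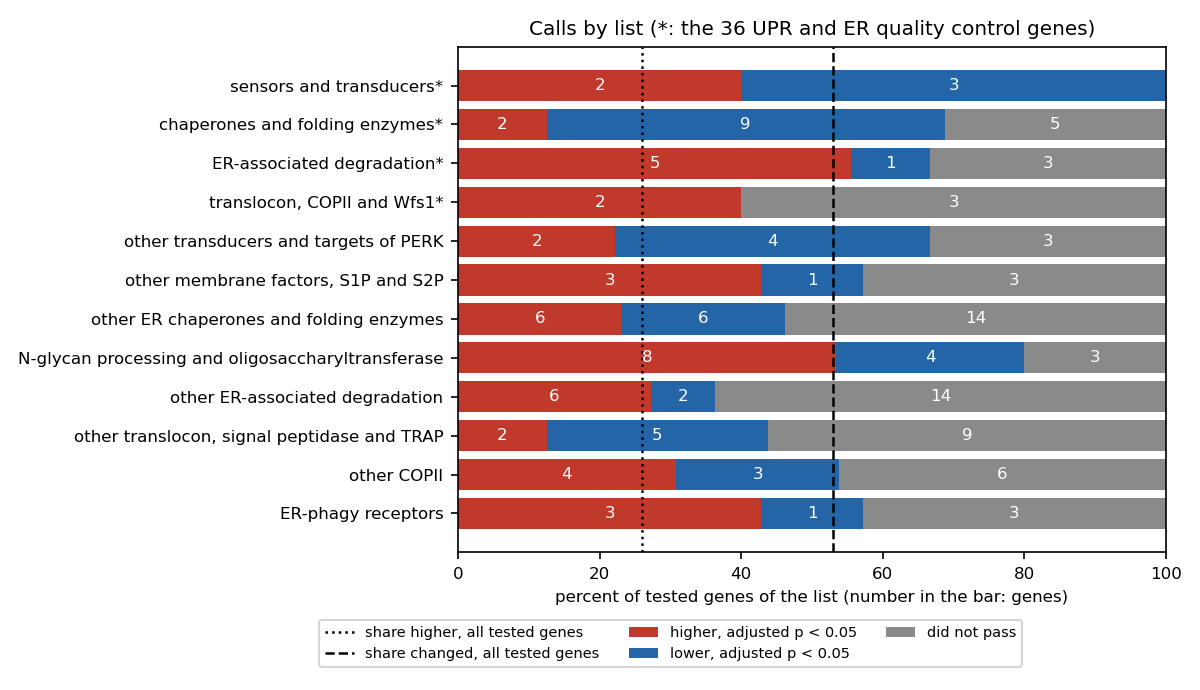
Share of tested genes (x axis, percent) that were higher, lower or did not pass in each list, with the number of genes in each bar; starred lists hold the 36 genes. The dotted line marks the 26.0% of all tested genes that were higher and the dashed line the 53.0% that changed. Starred degradation genes were higher in 5 of 9 cases and starred chaperones in 2 of 16.

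At the entry and exit of the ER, 2 of 5 members were higher, 0 lower and 3 did not pass, so that 40.0% changed, against 53.0% of all tested genes. Sec61a1, the pore of the translocon through which new chains enter, had 41.7, 38.8 and 35.8 FPKM in treated libraries, against 29.1, 29.9 and 31.0 FPKM in RANKL libraries. It rose by 0.29 (limma adjusted p = 0.00630), and an antisense gene covers 8.16% of its exons. Its small partner Sec61b overlapped between groups (68.4 ± 5.99 FPKM in treated libraries and 70.8 ± 7.50 FPKM in RANKL libraries, limma adjusted p = 0.255). Sec24d, which picks cargo for COPII vesicles and carries the motif TGACGTGG described above, had 11.0, 10.3 and 10.1 FPKM in treated libraries, against 8.01, 8.10 and 8.47 FPKM in RANKL libraries, and rose by 0.27 (limma adjusted p = 0.00755). Its coat partner Sec23b did not pass (log2 fold change -0.14, limma adjusted p = 0.194). Wfs1, an ER membrane protein that regulates ATF6 turnover, was low at 0.990 ± 0.194 FPKM in treated libraries and 1.0 ± 0.134 FPKM in RANKL libraries (log2 fold change -0.10, 95% interval -0.52 to 0.32), so that a change of moderate size was not detectable at this depth. Of 16 other genes of the translocon, signal peptidase and TRAP complex, 2 were higher and 5 lower (43.8% changed, against 53.0% of all tested genes). With library totals only, 3 were higher and 4 lower. Spcs3, a signal peptidase subunit, fell to 50.3 ± 3.93 FPKM in treated libraries, against 91.7 ± 8.63 FPKM in RANKL libraries (log2 fold change -0.94, limma adjusted p = 2.49e-05), and Sec11c of the same enzyme and Ssr3 of the TRAP complex fell by 0.48 and 0.47.

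Members with and without a promoter motif both included higher and lower genes, beside 26.0% higher and 27.0% lower among all tested genes. Of the 12 member windows that held any of the 4 motifs, 3 belonged to higher genes (Calr, Syvn1 and Sec24d), 5 to lower genes (Hsp90b1, Dnajc3, Creld2, Canx and Pdia6), 3 to genes that did not pass (Hspa5, Dnajb11 and Herpud1), and that of Derl3 to a gene too low to test. Of the 19 windows without an exact match, 6 belonged to higher, 6 to lower and 7 to genes that did not pass. Neither Os9 nor Edem1 held a match in its window. Summed over each role, chaperones and folding enzymes reached 2613, 2372 and 2337 FPKM in treated libraries, against 2276, 2344 and 2284 FPKM in RANKL libraries, a sum that P4hb and Calr dominate. The sum of degradation genes was 275, 260.02 and 260.02 FPKM in treated libraries, against 215, 223 and 235 FPKM in RANKL libraries. Both sums are of deposited values. Scaling divides these by factors of 1.01 to 1.04 in treated libraries and 0.967 to 0.978 in RANKL libraries. The deposited sums thus lean toward treated libraries, and no difference in the chaperone sum is read from them. Within a library the ratio of the degradation sum to the chaperone sum was 0.109 ± 0.00311 in treated libraries and 0.0974 ± 0.00458 in RANKL libraries, without overlap. Os9 alone averaged 74.4 FPKM in treated libraries and 37.8 FPKM in RANKL libraries, so it makes up much of the difference in the degradation sum. No shift of degradation genes over chaperones as a class is read from this ratio.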

How the data were processed

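Total RNA of 6 RAW264.7 libraries was sequenced. Each library has its own table of FPKM by Ensembl gene, as the authors deposited it; the unit was read from the values, since the headers name none. Per the submitters' processing notes the tools included Trimmomatic 0.38, HISAT2 2.1.0 and featureCounts 1.6.0, and the named build was the human GRCh38, but all 55536 identifiers are those of mouse GENCODE M21 (GRCm38), which gave symbols and coordinates. Strandedness and library selection are not given in the sources used here. Reads of overlapping or antisense genes therefore cannot be told apart.

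FPKM times merged exon length gave whole reads for 100% of values within 0.01 reads. From these reads TMM factors were computed (30% of M, 5% of A trimmed) and FPKM scaled by them. With a pseudocount of 0.1 FPKM, the log2 values went into limma 3.58.1 (R 4.3.3) with group alone in the model and a prior variance that follows the mean; this scale understates changes of low genes. Genes needed 0.5 FPKM and 10 reads in 3 libraries (11120 genes). Printed FPKM are the deposited values before scaling. Fold changes are treated over RANKL alone, and their 95% intervals are limma's. The steps were also run on simulated reads with a single dispersion and far fewer changed genes than here. That run therefore does not speak to the error rate in these data.

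All 36 members are named. Of each list of other pathway genes up to 3 with the smallest adjusted p are named; Ddit3 and Chac1 were added after their values were seen. Members and lists were chosen with earlier results of these data known. Replicate pairs of a group differed beyond sampling noise (median chi-square per gene 1.05 to 2.34). Alternatives covered scaling, pseudocount, filter, prior variance, voom weights, the replicate block and leaving out each library. Python 3.11.15, pandas 2.3.3 and numpy 2.4.6 handled annotation and promoters. Where a gene had 2 windows, that nearest the annotated start was used.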

Additional observations from a re-analysis of the deposited data

How the results depend on the processing

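Of the 24 changed members, 21 kept their direction and their call under all 16 alternatives; the exceptions, Atf6, Eif2ak3 and Calr, lost theirs under the settings given in the report. The count of changed members was 23 with library totals only, with no filter and with a single prior variance, 25 with voom weights, 24 under the other settings that use all libraries, and 22 to 25 when 1 library was left out. Over all genes the count was 5894, and 4689 to 6064 when 1 library was left out. Sensors and transducers were the exception among the roles, with 3 of 5 changed with library totals only and 3 to 5 when 1 library was left out: 3 without treated replicate 2 or 3 or RANKL replicate 2. Library totals moved the median log2 fold change of all tested genes to 0.07, against -0.01 in the reported fit. Wfs1 has no value with the minimum of 1 FPKM, where it was not tested. Among the members that did not pass, the sign of Dnajb11, Herpud1 and Edem3 turned with library totals only, that of Edem3 without treated replicate 2, and that of Wfs1 without treated replicate 1; the cause was not tested.

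The labels share replicate numbers between groups, but same-numbered libraries did not deviate together (correlations over genes 0.0744, -0.0188 and -0.0299 for replicates 1, 2 and 3), so the numbers were not taken as pairs. With the replicate block 24 members (11 higher, 13 lower) and 5709 genes changed, and no member changed its call. By role the block gave 5 sensors, 11 chaperones, 6 degradation genes and 2 of the translocon and COPII group. Depth limits Derl3, with at most 2 reads per library, and Wfs1.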

Other observations

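Genes of vesicle exit and of ER turnover changed about as often as all tested genes, of which 53.0% changed. Of 13 tested COPII genes beyond the members, 4 were higher and 3 lower in treated cells (53.8% changed). Tfg, which organises COPII exit sites, stood at 32.3 ± 1.59 FPKM in treated libraries and 39.6 ± 0.996 FPKM in RANKL libraries (SD, n = 3 each; log2 fold change -0.37, limma adjusted p = 0.000442), and Mia2, an export receptor, fell by 0.33 (limma adjusted p = 0.00978). Preb, the exchange factor that starts coat assembly, rose by 0.25 (limma adjusted p = 0.00847), with 21.9% of its exon length shared with other genes.

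Of 7 tested receptors of ER-phagy, the delivery of ER fragments to lysosomes, 3 were higher and 1 lower (57.1% changed). Atl3, a membrane-fusing GTPase of ER tubules, stood at 20.5 ± 0.657 FPKM in treated libraries and 29.9 ± 2.0 FPKM in RANKL libraries (log2 fold change -0.62, limma adjusted p = 7.21e-05). Retreg3, a reticulon-like receptor, stood at 18.2 ± 0.385 FPKM in treated libraries and 12.6 ± 1.06 FPKM in RANKL libraries (log2 fold change 0.46, limma adjusted p = 0.000616), and Rtn3 rose by 0.24 (limma adjusted p = 0.00666).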
